A study of Mus musculus with 6 samples.

Results

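Expression of 10 genes of hormone-sensing luminal cells was followed in mammary epithelial organoids of lactating mice that lack Nmi and of wild-type mice. The genes were taken as a named list, the hormone receptor genes Esr1 and Pgr, the transcription factor genes Foxa1, Gata3, Tbx3 and Spdef, the coactivator gene Cited1, the growth factor gene Areg and the surface marker genes Ly6a and Prom1. All 10 were present among the 17739 gene symbols of the deposited table. The groups were a conditional Nmi knockout (KO, labelled Nmi-/-, 3 mice) and wild type (WT, 3 mice), both on the FVB background, with 1 library per mouse. Tissue came from the second and the third mammary gland pairs at the start of lactation, was digested with collagenase and pronase and was enriched for epithelial fragments by pulse centrifugation. No treatment is labelled, and neither the ages of the mice nor the promoter that drives the recombinase of the knockout is given in the sources used here. Nmi, an interferon-inducible partner of Myc and STAT proteins, had 0.188, 0.547 and 0.564 FPKM in KO replicates 1, 2 and 3, against 4.60, 2.82 and 2.32 FPKM in WT replicates 1, 2 and 3. The groups did not overlap for Nmi, with a log2 fold change of -1.54 (SE 0.23, limma adjusted p = 0.372), and the libraries matched their labels.

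Luminal cells of the mammary epithelium fall into a hormone-sensing and a milk-secreting (alveolar) lineage. Hormone-sensing cells carry the estrogen receptor (Esr1) and the progesterone receptor (Pgr), and pass hormonal signals to neighbouring cells through secreted factors such as amphiregulin (Areg), RANKL (Tnfsf11) and Wnt4. The pioneer factor Foxa1 opens chromatin for the estrogen receptor, Gata3 maintains luminal fate in both lineages, and in pregnancy and lactation the alveolar lineage comes to dominate the gland.

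Promoter sequences are shown for 3 of the genes, Areg, Cited1 and Esr1. Areg had the widest range among the 10 genes, Cited1 shared its highest library, and Esr1 peaked in a different library. The highest library of Areg and Cited1, WT replicate 1, was also that of Tbx3, Ly6a and Prom1 and of 63.5% of all tested genes. It does not set Cited1 apart. Each run is the 250 bases before an annotated transcription start in RefSeq on GRCm38.p6, read 5′ to 3′ on the strand of the gene. Capitals mark matches, on either strand, to the cyclic AMP response element TGACGTCA, the TATA box TATAAA, the palindromic estrogen response element (GGTCA and TGACC with any 3 bases between), the single arm AGGTCA, the forkhead motif TGTTTAC and the GATA motif AGATAA.
Areg (chr5:91139349-91139598, plus strand): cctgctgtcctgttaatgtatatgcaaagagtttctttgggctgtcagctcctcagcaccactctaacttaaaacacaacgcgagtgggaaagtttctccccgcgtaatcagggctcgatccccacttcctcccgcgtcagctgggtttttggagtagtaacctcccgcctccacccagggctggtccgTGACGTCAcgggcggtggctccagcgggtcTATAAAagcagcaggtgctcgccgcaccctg
Cited1, the first of 3 listed starts (chrX:102252182-102252431, minus strand): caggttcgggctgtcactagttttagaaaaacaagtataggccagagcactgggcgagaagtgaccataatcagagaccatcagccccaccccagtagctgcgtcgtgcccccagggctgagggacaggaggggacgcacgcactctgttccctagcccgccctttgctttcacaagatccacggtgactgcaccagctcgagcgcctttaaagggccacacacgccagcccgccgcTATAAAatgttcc
Esr1, the first of 2 listed starts (chr10:4611739-4611988, plus strand): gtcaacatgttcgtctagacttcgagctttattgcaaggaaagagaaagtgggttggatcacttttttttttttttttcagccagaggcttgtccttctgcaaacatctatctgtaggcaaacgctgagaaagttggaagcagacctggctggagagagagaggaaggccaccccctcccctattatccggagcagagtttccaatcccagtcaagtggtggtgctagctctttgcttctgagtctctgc
The Areg run held TGACGTCA 61 bases and TATAAA 31 bases before the start, and the Cited1 run held TATAAA 13 bases before it. Among 27025 promoters in the RefSeq table, TGACGTCA was found in 1.62% and TATAAA in 12.97% of windows of the same length. The Esr1 run held none of these letters. The palindromic element was found in 0.0629% of all windows, AGGTCA in 13.8%, TGTTTAC in 3.09% and AGATAA in 10.3%, and none of these 4 motifs was in the 3 printed runs. The third Cited1 start, not printed, has AGGTCA on the opposite strand 217 bases before it. Promoters were found in that table for 8 of the 10 genes. A match is a description of letters, not of a bound site.

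No member passed the test between KO and WT, and for every member the values of the genotypes overlapped. Values were FPKM (fragments scaled to transcript length and to the library, so that levels of different genes can be compared per length), and 9767 genes with at least 1 FPKM in at least 3 libraries were tested with limma on log2(FPKM + 1). Of the 10 members, 6 passed this filter (Esr1, Foxa1, Gata3, Tbx3, Cited1 and Ly6a), and Pgr, Spdef, Areg and Prom1 did not. With limma and Benjamini-Hochberg adjustment over all tested genes, 0 of the 6 were called, against 0 (0%) of all tested genes, and 0 of the 6 had an unadjusted p under 0.05, against 1.33% of all tested genes (0.184% higher and 1.15% lower in KO). The smallest adjusted p of all tested genes was that of Nmi itself (limma unadjusted p = 3.81e-05, adjusted p = 0.372). The test thus did not call even the deleted gene, and a lack of calls does not show that the members were equal. The KO and WT values overlapped for all 10 members, while 4.61% of the tested genes had groups that did not overlap (0.778% higher and 3.83% lower in KO). The median log2 fold change (KO minus WT) was -0.08 over the 6 tested members and -0.21 over all tested genes, and 4 of the 6 lay above that all-gene median, as 50% of all tested genes do. For single genes the exact permutation test allows no p below 0.1 with 3 against 3 mice. The smallest among the members was p = 0.2 for Areg (exact permutation test, two-sided).

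**Figure D1:**
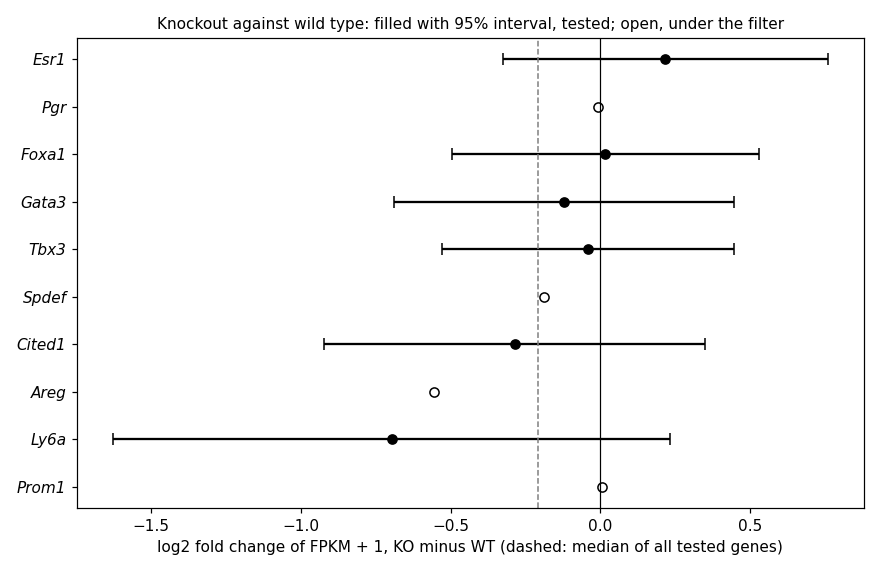
Log2 fold change of FPKM + 1 (KO minus WT) on the x axis for the 10 genes down the page. Filled points with 95% confidence intervals are the 6 tested genes, open points are the 4 genes under the filter, and the dashed line is the median of all tested genes (-0.21); all 6 intervals include 0.

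The hormone receptors were both at low levels. Esr1 (GRCm38 chr10:4611593-5005614, plus strand) had 1.09, 0.644 and 2.18 FPKM in KO replicates 1, 2 and 3, and 0.704, 0.834 and 1.22 FPKM in WT replicates 1, 2 and 3. KO replicate 3 was the highest and KO replicate 2 the lowest of the 6, so the WT range lay inside the KO range. The means were 1.30 ± 0.789 FPKM in KO and 0.921 ± 0.271 FPKM in WT (SD, n = 3 each). KO minus WT, this came to 0.22 on the log2 scale (limma, SE 0.25, adjusted p = 0.768), with a 95% interval from -0.32 to 0.76. The value was -0.04 without KO replicate 3. Pgr (chr9:8899833-8968611, plus strand) lay under 0.3 FPKM in every library, with 0.0266, 0.212 and 0.0713 FPKM in KO replicates 1, 2 and 3, and 0.111, 0.154 and 0.0596 FPKM in WT replicates 1, 2 and 3. KO replicates held both the highest and the lowest value. Esr1 exceeded Pgr in all 6 libraries.

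The transcription factors spanned a wide range of levels, and Gata3 was the steadiest member. Gata3 (chr2:9857078-9890034, minus strand) had 34.6, 29.0 and 24.2 FPKM in KO replicates 1, 2 and 3, and 28.4, 34.9 and 31.9 FPKM in WT replicates 1, 2 and 3. The groups overlapped across most of their range. Its highest library was 1.44 times its lowest, and 10.04% of the tested genes had a smaller ratio. The median ratio was 2.09. KO minus WT, Gata3 came to -0.12 on the log2 scale (limma, SE 0.26, adjusted p = 0.842), with a 95% interval from -0.69 to 0.45.

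Foxa1 (chr12:57540628-57546916, minus strand) had 1.32, 2.40 and 1.64 FPKM in KO replicates 1, 2 and 3, and 1.96, 2.23 and 1.11 FPKM in WT replicates 1, 2 and 3. The means of 1.79 ± 0.554 FPKM in KO and 1.77 ± 0.588 FPKM in WT (SD, n = 3 each) were apart by less than the SD of either group. Tbx3 (chr5:119670669-119684724, plus strand), a T-box repressor required for mammary development, had 1.11, 1.57 and 0.675 FPKM in KO replicates 1, 2 and 3, and 1.61, 1.13 and 0.785 FPKM in WT replicates 1, 2 and 3. The log2 fold changes were 0.02 (SE 0.23) for Foxa1 and -0.04 (SE 0.22) for Tbx3. Spdef (chr17:27714352-27728955, minus strand), an ETS factor of luminal and secretory epithelia, had 1.41, 0.559 and 0.346 FPKM in KO replicates 1, 2 and 3, and 0.988, 1.27 and 0.656 FPKM in WT replicates 1, 2 and 3. KO replicate 1 held the highest and KO replicate 3 the lowest value. The difference of means for Spdef was -0.19 on the log2(FPKM + 1) scale and -0.45 with a pseudocount of 0.1. Cited1 (chrX:102247381-102252181, minus strand), a coactivator of the estrogen receptor, had 1.01, 0.515 and 0.762 FPKM in KO replicates 1, 2 and 3, and 2.45, 1.01 and 0.405 FPKM in WT replicates 1, 2 and 3. WT replicate 1 stood above the other 5 libraries and WT replicate 3 below them. The log2 fold change of Cited1 was -0.29 (SE 0.29). It was 0.06 without WT replicate 1 and -0.59 without WT replicate 3, where its unadjusted limma p was under 0.05 (adjusted p = 0.508).

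Areg (chr5:91139599-91148432, plus strand), an EGF receptor ligand through which estrogen drives ductal growth, varied more than any other member. It had 0.181, 0.420 and 0.0866 FPKM in KO replicates 1, 2 and 3, and 1.99, 0.582 and 0.225 FPKM in WT replicates 1, 2 and 3. WT replicates 1 and 2 were above every KO library, and WT replicate 3 lay among the KO values. The highest library was 22.9 times the lowest. The means were 0.229 ± 0.172 FPKM in KO and 0.932 ± 0.932 FPKM in WT (SD, n = 3 each), and the WT mean was 0.404 FPKM without WT replicate 1. The difference of means on the log2(FPKM + 1) scale was -0.56. It was -1.36 with a pseudocount of 0.1, which compresses low values less, and between -0.83 (without WT replicate 3) and -0.19 (without WT replicate 1) when 1 library was left out. Without both WT replicate 1 and KO replicate 3 it was -0.10. Areg has 1 annotated transcript of 1215 bases, which allows a rough conversion to fragments. These values corresponded to about 5.5, 13.8 and 2.7 fragments in KO replicates 1, 2 and 3, and about 57.7, 16.7 and 7.3 in WT replicates 1, 2 and 3, so counting error was large in all libraries but WT replicate 1.

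The surface markers differed greatly in level. Ly6a (chr15:74994877-74998031, minus strand), which encodes Sca-1, was the most abundant member, with 45.2, 27.0 and 18.8 FPKM in KO replicates 1, 2 and 3, and 86.9, 39.9 and 29.4 FPKM in WT replicates 1, 2 and 3. WT replicate 1 stood well above the other libraries, KO replicate 1 lay above the other WT libraries, and KO replicate 3 was lowest. The means were 30.4 ± 13.5 FPKM in KO and 52.1 ± 30.6 FPKM in WT (SD, n = 3 each). KO minus WT, Ly6a came to -0.70 on the log2 scale (limma, SE 0.42, adjusted p = 0.768), with a 95% interval from -1.63 to 0.23. Leaving out 1 library at a time gave -1.02 to -0.26, the end values without WT replicate 3 and without WT replicate 1, and the unadjusted limma p was under 0.05 without KO replicate 1 (adjusted p = 0.845) and without WT replicate 3 (adjusted p = 0.508). Without both WT replicate 1 and KO replicate 3 the value was 0.03. Prom1 (chr5:43993620-44102032, minus strand), which encodes the membrane protein prominin-1, had 0.277, 0.282 and 0.0513 FPKM in KO replicates 1, 2 and 3, and 0.383, 0.153 and 0.0666 FPKM in WT replicates 1, 2 and 3. The third replicate was the lowest of its group in both genotypes.

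**Figure D2:**
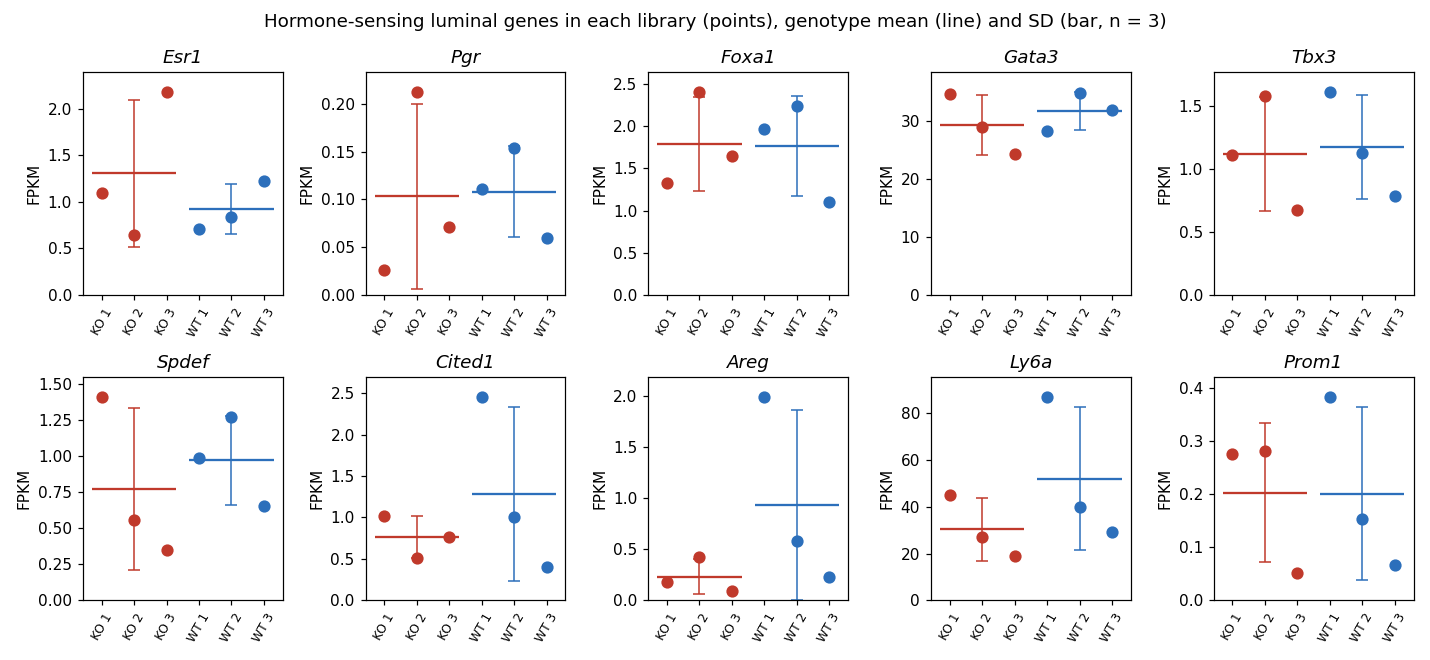
FPKM (y axis, from 0 in each panel) of each gene in KO replicates 1 to 3 (red) and WT replicates 1 to 3 (blue), with a line at the genotype mean and a bar for its SD (n = 3). KO and WT values overlap in all 10 panels, and WT replicate 1 stands highest for Tbx3, Cited1, Areg, Ly6a and Prom1.

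Ordered by mean FPKM over the 6 libraries, the members fell into an abundant pair and 8 low genes. Ly6a averaged 41.2 FPKM and Gata3 30.5 FPKM. Their ranges overlapped, and Ly6a was the higher in 3 of 6 libraries. Below a gap of 17.2 times came Foxa1 (1.78 FPKM), which exceeded Tbx3 (1.15 FPKM) in 6 of 6 libraries, then Esr1 (1.11 FPKM), Cited1 (1.03 FPKM) and Spdef (0.871 FPKM). Tbx3, Esr1, Cited1 and Spdef changed places between libraries and did not differ beyond their spread. Areg (0.580 FPKM) was above Prom1 (0.202 FPKM) in 5 of 6 libraries, and Prom1 was above Pgr (0.106 FPKM) in 4 of 6. Gata3 and Ly6a lay at the 94.9th and the 96.5th percentile of mean FPKM in the whole table, Esr1 at the 46.4th and Pgr at the 25.3rd.

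Esr1 and Pgr, which define hormone-sensing cells, were therefore measured at far lower levels than Gata3 and Ly6a. In bulk samples fewer cells of a type and less RNA per cell cannot be told apart. The milk protein list (19 genes in the table) took 68.0%, 64.3% and 77.2% of the FPKM sum in KO replicates 1, 2 and 3, and 48.9%, 62.1% and 71.5% in WT replicates 1, 2 and 3. FPKM is relative to the library, and the share left to other genes was therefore smallest in KO replicate 3 and largest in WT replicate 1.

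The same 2 libraries stood at the ends of the range for many genes. WT replicate 1 was the highest library for 5 of the 10 members (3 of the 6 tested), and for 63.5% of all tested genes. KO replicate 3 was the lowest for 6 of the 10 (3 of the 6 tested), and for 65.8% of all tested genes. The members' shares were therefore not above the background. Esr1 went the other way. It was highest in KO replicate 3, as 7.74% of the tested genes were, and its order over the libraries followed that of the milk protein share except in KO replicate 2, where it was lowest. The 3 tested genes whose standardised profile over the 6 libraries was most like that of Esr1 were Rassf6, Osbpl1a and Srebf1 (root mean square differences 0.0816, 0.109 and 0.111 SD units). Srebf1, the gene of a regulator of lipid synthesis, had 27.3, 17.1 and 65.9 FPKM in KO replicates 1, 2 and 3, and 16.2, 22.9 and 30.9 FPKM in WT replicates 1, 2 and 3. For Areg the most alike were Pak4, Naa20 and Emg1 (0.0758, 0.0766 and 0.0789), and for Ly6a 1810009A15Rik, Phf21a and the ribosomal pseudogene Rps15a-ps6 (0.0303, 0.0477 and 0.0985). With 9766 or 9767 genes compared over only 6 libraries, close profiles can be found for many genes. Standardising also removes the size of the range, which for Pak4 was only 5.87 to 10.7 FPKM.

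**Figure D3:**
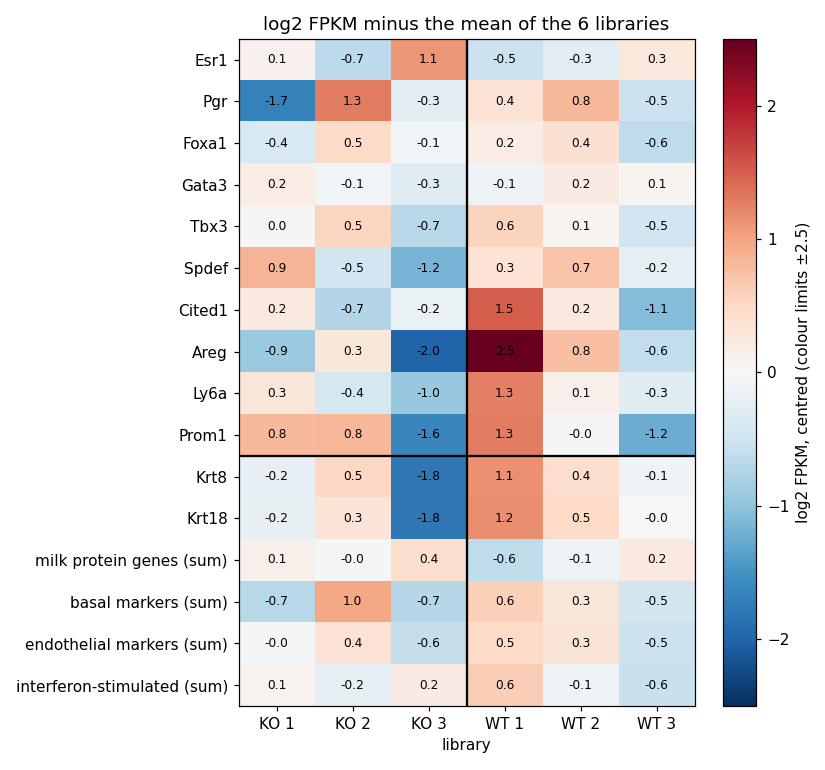
Log2 FPKM of each gene or summed list minus its mean over the 6 libraries, with KO replicates 1 to 3 left of WT replicates 1 to 3; red is above the mean and blue below. Areg, Ly6a, Krt8 and Krt18 are all highest in WT replicate 1 and lowest in KO replicate 3. From KO replicate 1 to KO replicate 2, Ly6a falls whereas Krt8 and Krt18 rise. Esr1 is highest in KO replicate 3 and Gata3 is nearly level.

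The luminal keratins gave a second scale. Krt8 had 596, 983 and 198 FPKM in KO replicates 1, 2 and 3, and 1515, 929 and 647 FPKM in WT replicates 1, 2 and 3, and Krt18 ranged 7.74 times between its lowest and highest library. Of the 9 luminal keratin and adhesion genes, 8 had fold changes below the median of all genes, and none was called (smallest limma adjusted p = 0.768). Gata3 came to 28.1, 15.3 and 59.4 FPKM per 1000 FPKM of Krt8 and Krt18 in KO replicates 1, 2 and 3, against 9.03, 17.9 and 23.3 in WT replicates 1, 2 and 3. These groups overlapped, with KO replicate 3 far above the rest. Tbx3 came to 0.897, 0.833 and 1.65 per 1000 in KO replicates 1, 2 and 3, and 0.512, 0.579 and 0.574 in WT replicates 1, 2 and 3, which did not overlap. Prom1 came to 0.224, 0.149 and 0.126 per 1000 in KO replicates 1, 2 and 3, and 0.122, 0.0785 and 0.0487 in WT replicates 1, 2 and 3, which did not overlap either. The nearest values, 0.126 in KO replicate 3 and 0.122 in WT replicate 1, were close. Prom1 lay under the filter. Its value in KO replicate 3 stood for about 0.84 to 6.2 fragments, depending on the transcript length assumed, so counting error was large. On this scale 12.8% of all tested genes had groups that did not overlap, and 12.7% lay higher in KO. When all genes were scaled to the 9 luminal genes, the log2 fold change of Tbx3 was 0.32 (limma adjusted p = 0.522), against -0.04 on the deposited scale, and 0 members were called. With scaling to the 9 genes, 9.19% of the tested genes had groups that did not overlap, and the median of all genes was 0.36.

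**Figure D4:**
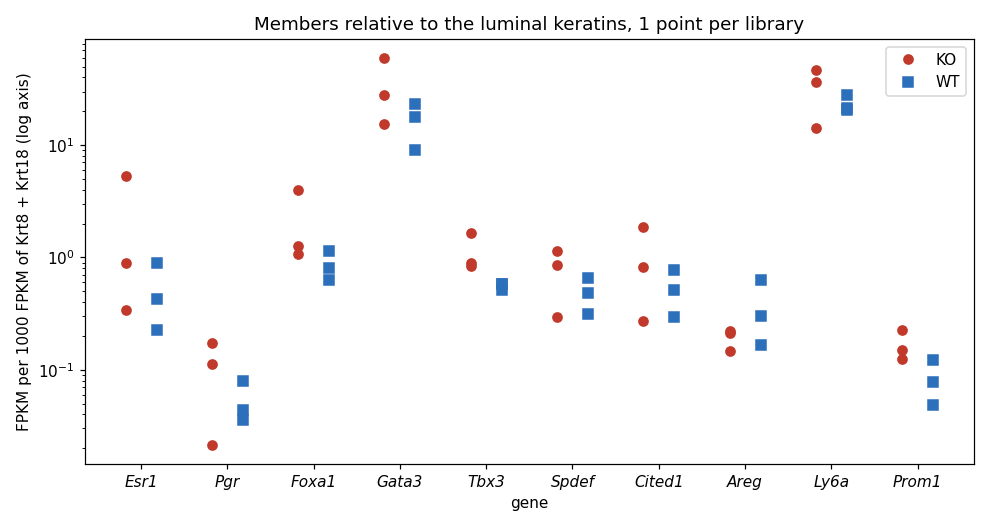
FPKM of each gene per 1000 FPKM of Krt8 and Krt18 together (log y axis), with 1 red circle per KO library left of 1 blue square per WT library. KO values of Tbx3 and Prom1 lie above all WT values, for Prom1 by a small margin and on few fragments. The other 8 genes overlap, and 12.8% of all tested genes do not overlap on this scale.

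No other gene of the hormone pathway lists passed the test. Among other hormone-sensing markers, 7 of 16 were tested and 0 were called, with a median log2 fold change of -0.09 against -0.21 for all genes. Wnt4, a progesterone-induced ligand, had 1.65, 3.23 and 0.551 FPKM in KO replicates 1, 2 and 3, and 2.55, 2.16 and 1.74 FPKM in WT replicates 1, 2 and 3. Wnt7b averaged 0.836 ± 0.799 FPKM in KO and 1.85 ± 1.60 FPKM in WT, and S100a6, a calcium-binding protein, 48.1 ± 32.3 FPKM in KO and 86.9 ± 62.5 FPKM in WT (SD, n = 3 each). Tnfsf11, named after its values were seen, was listed at 0.0352 FPKM in WT replicate 2 and at 0 in the other 5 libraries. Gapdh, which nearly every cell uses, was listed at 0 in 3 of the 6 libraries. It was at 0.0245 and 0.0455 FPKM in KO replicates 1 and 2 and 0.0769 FPKM in WT replicate 1. A 0 or a value near 0 in this table can therefore be a failed estimate. Prlr, the prolactin receptor gene, also named after its values were seen, had 3.52, 3.47 and 4.25 FPKM in KO replicates 1, 2 and 3, and 2.34, 3.98 and 3.86 FPKM in WT replicates 1, 2 and 3.

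Of 22 genes of other steroid, nuclear and related hormone receptors, 13 were tested and 0 called (median log2 fold change -0.06). The smallest unadjusted p values belonged to Pgrmc1, a membrane-associated progesterone receptor component, with 17.5 ± 8.02 FPKM in KO and 27.0 ± 7.60 FPKM in WT, and Rxrb, a retinoid X receptor, with 5.14 ± 0.572 FPKM in KO and 7.10 ± 1.55 FPKM in WT (SD, n = 3 each). The KO and WT values did not overlap for Rxrb and overlapped for Pgrmc1. Rarg, a retinoic acid receptor, had a log2 fold change of -0.58 (SE 0.37). Of 20 coregulators and chaperones of steroid receptors, 19 were tested and 0 called (median -0.21, as for all genes). Cited4, a relative of Cited1, had 79.7, 35.0 and 26.4 FPKM in KO replicates 1, 2 and 3, and 141, 56.1 and 48.0 FPKM in WT replicates 1, 2 and 3. It was highest in WT replicate 1 and lowest in KO replicate 3, like Ly6a, and the groups overlapped. Carm1, an arginine methyltransferase, had a log2 fold change of -0.64 (SE 0.36), and the prohibitin gene Phb2 one of -0.43 (SE 0.29).

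Of 26 genes known as targets of the estrogen or progesterone receptor, 14 were tested and 0 called (median log2 fold change -0.14). Ccnd1, which encodes cyclin D1, averaged 7.10 ± 2.304 FPKM in KO and 5.10 ± 1.17 FPKM in WT, and the corepressor gene Nrip1 23.1 ± 4.45 FPKM in KO and 17.8 ± 6.81 FPKM in WT (SD, n = 3 each). Myc averaged 31.0 ± 15.9 FPKM in KO and 43.2 ± 15.9 FPKM in WT. Greb1, an estrogen target named after its values were seen, was listed between 0.00464 and 0.00952 FPKM in all 6 libraries.

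Among the relatives of amphiregulin with their sheddase and receptors, 8 of 11 genes were tested and 0 called (median log2 fold change -0.24). The ligand gene Btc had 1.07, 1.502 and 0.390 FPKM in KO replicates 1, 2 and 3, and 2.92, 1.31 and 1.03 FPKM in WT replicates 1, 2 and 3, with the highest and the lowest library the same as for Areg. Erbb2 had a log2 fold change of -0.71 (SE 0.39), and Adam17, the sheddase that releases amphiregulin, one of -0.41 (SE 0.31). Among 24 other luminal transcription factors, 16 were tested and 0 called (median log2 fold change -0.38). Ehf, an epithelial ETS factor, averaged 59.7 ± 24.3 FPKM in KO and 98.9 ± 30.8 FPKM in WT, Lmo4, a LIM-domain cofactor, 24.7 ± 6.07 FPKM in KO and 33.6 ± 3.68 FPKM in WT, and Tfap2b 1.76 ± 0.677 FPKM in KO and 3.22 ± 2.06 FPKM in WT (SD, n = 3 each).

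Ly6a belongs to a cluster of related genes on chromosome 15, and its value may depend on how reads were divided among them. Its longest transcript (955 bases) aligned to Ly6c1 at 84.8% identity over 854 bases and to Ly6i at 85.6% over 805 bases. Ly6c1 had 8.72, 13.1 and 6.85 FPKM in KO replicates 1, 2 and 3, and 16.0, 12.6 and 5.94 FPKM in WT replicates 1, 2 and 3. It was thus below Ly6a in every library and did not share the order of Ly6a. Ly6d had a log2 fold change of -0.49 (SE 0.51) and Lynx1 one of -0.11 (SE 0.22). Of the 6 tested relatives of Ly6a and Prom1, 0 were called. The gene 4930412O13Rik overlaps Gata3 by 2670 bases on the opposite strand, and the strand setting of the libraries is not given in the sources used here. It had 2.35 to 3.70 FPKM in KO and 2.57 to 3.02 FPKM in WT, far below Gata3. On the same strand 9230102O04Rik overlaps Gata3 by 6500 bases, which no strand setting would separate, and had 0.286 to 0.600 FPKM in KO and 0.464 to 0.676 FPKM in WT. Ly6a is also known to respond to interferon. Of 22 interferon-stimulated genes 16 were tested and 0 called (median log2 fold change -0.02), with KO higher for 8 and lower for 8. Of the 16, 9 were highest in WT replicate 1, as Ly6a and 63.5% of all tested genes were. The 3 with the smallest p were higher in KO. Gbp3 averaged 5.92 ± 2.79 FPKM in KO and 4.07 ± 0.539 FPKM in WT, Ifi44 1.86 ± 1.14 FPKM in KO and 1.18 ± 0.280 FPKM in WT, and Zbp1 1.32 ± 0.171 FPKM in KO and 0.968 ± 0.123 FPKM in WT (SD, n = 3 each). The KO and WT values did not overlap for Zbp1. Rsad2 and Isg15, named after their values were seen, lay lower in KO, Rsad2 at -0.39 (SE 0.44) and Isg15 at -0.32 (SE 0.36) on the log2 scale, and neither passed the test.

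Other cell types in the organoids express several members: Ly6a occurs in endothelial and stromal cells, Tbx3 in mesenchyme, Gata3 and Areg in lymphocytes, and Esr1 in fibroblasts. The 12 endothelial markers summed to 93.3 to 183 FPKM in KO and 97.2 to 198 FPKM in WT. Of these, 12 were tested and 10 had fold changes above the median of all genes. Cdh5 and Cldn5 were the most abundant, at 26.9 and 33.5 FPKM on average in KO, and 29.9 and 42.6 FPKM in WT. The 12 fibroblast markers, led by Col3a1 and Dcn, summed to 39.1 to 74.5 FPKM in KO and 27.1 to 65.3 FPKM in WT. The T cell markers summed to at most 0.760 FPKM in KO and 0.297 FPKM in WT, led by Il7r and Ptprc, and 7 of the 9 in the table were under 0.2 FPKM in every library. Cd3e, named after its values were seen, was listed at 0.0255 to 0.118 FPKM in KO and at 0 in the 3 WT libraries. Values this low rest on very few fragments, and the difference was not tested. The 10 macrophage markers, led by Cd68 and Lyz2, summed to 11.5 to 26.5 FPKM in KO and 12.9 to 17.1 FPKM in WT. The 9 adipocyte markers summed to 165 to 459 FPKM in KO and 227 to 683 FPKM in WT, but nearly all of this was Fabp4, which endothelial cells also express, with 264, 440.4 and 157 FPKM in KO replicates 1, 2 and 3, and 672, 498 and 212 FPKM in WT replicates 1, 2 and 3. Lipe followed, and 6 of the 9 markers were under 0.2 FPKM in every library, among them Adipoq, named after its values were seen and listed at 0 in 4 of 6. The 15 basal markers, led by Acta2 and Tagln, summed to 531 to 1714 FPKM in KO and 631 to 1323 FPKM in WT. The 14 alveolar and progenitor markers, led by Wfdc18 and Mfge8, summed to 4626 to 6633 FPKM in KO and 5765 to 6356 FPKM in WT, a sum carried by that pair. Over the 14 genes the median log2 fold change was -0.46, 9 lay below the median of all genes and 0 were called. An unadjusted limma p under 0.05 was found for 2 of them, Lypd3 (-1.09) and Krt7 (-1.97), both named after their values were seen. Of all tested genes 1.33% reached it, 1.15% with lower values in KO. Of the 14 tested basal markers 1 reached it, Trp63 (-0.77), also named after its values were seen. WT replicate 1 had the highest endothelial sum and the highest Fabp4 and KO replicate 3 the lowest, as for Ly6a. Of all tested genes, 63.5% were highest in WT replicate 1 and 65.8% lowest in KO replicate 3. Ly6a was higher in KO replicate 1 than in KO replicate 2 (45.2 and 27.0 FPKM). The endothelial sum (137 and 183 FPKM) and Fabp4 (264 and 440 FPKM) were lower there. The part of other cells in the members' values was not tested.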

How the data were processed

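RNA of mammary epithelial organoids was sequenced in 6 libraries, 3 KO and 3 WT, from separately numbered mice. The values were FPKM, deposited by the authors in 1 table of 17739 gene symbols. The submitters' processing notes name Cufflinks, TopHat, SAMtools and FastQC with the builds mm10 and GRCm38. For versions, parameters, annotation and strand settings, the entry is not given in the sources used here. As FPKM is relative to the library total, a larger share of milk transcripts leaves a smaller share to the other genes together. How far this set the level of any single gene was not tested. Replicates were numbered in accession order.

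The 9767 genes that reached 1 FPKM in 3 or more libraries entered limma 3.58.1 (R 4.3.3) on log2(FPKM + 1), with an intensity trend, two-sided, with Benjamini-Hochberg adjustment over all tested genes and a threshold of 0.05. Fold changes on this scale understate those of low genes. Members below the filter were given an exact permutation test. Depth was estimated from 1 fragment's worth of FPKM in single-transcript genes, assuming 200-base fragments, at 28300000 to 32400000 fragments per library within a preset search window; 76.9% to 83.9% of low values lay within 0.2 of a whole fragment. SDs are spreads between mice. SEs and confidence intervals came from limma, which combines the variance of a gene with that of genes at similar levels. They are therefore not the spread of that gene alone. None of these errors is a counting interval. Coordinates and transcript lengths came from GENCODE mouse release 21 on GRCm38, promoter sequences from RefSeq, and gene copies from BLAST 2.17.0.

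The members and lists were chosen with earlier results of these data known. Genes named were the members, Nmi, 3 tested genes with the smallest unadjusted p per pathway list, 2 with the highest FPKM per cell type list, and 3 with the most similar profile for Esr1, Areg and Ly6a. Other genes are marked as named after their values were seen, apart from relatives and overlapping genes of members. Alternatives were another pseudocount (0.1), no filter, 4 other scalings, library weights and leaving out libraries.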

Additional observations from a re-analysis of the deposited data

How the results depend on the processing

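Areg had a lower KO mean under all 13 alternatives that gave it a value, and the other 9 members changed sign under at least 1. The alternatives reuse the same libraries, so they are not independent. Areg lay under the filter, and the share of all genes that kept their sign was not counted. With a pseudocount of 0.1 Areg came to -1.36, Spdef to -0.45, Cited1 to -0.42 and Esr1 to 0.34. No member was called under any of the 14 alternatives. Values are log2 fold changes, KO minus WT. The all-gene median was -0.21 as deposited, 0.00 with trimmed-mean rescaling, -0.02 with quantile normalization, -0.03 with scaling outside the milk proteins and 0.36 with scaling to luminal keratin and adhesion genes. Trimmed-mean rescaling turned Pgr (0.011), Gata3 (0.13) and Tbx3 (0.092). Quantile normalization turned Gata3 (0.10) and Tbx3 (0.065), and scaling outside the milk proteins Pgr (0.0094), Gata3 (0.092) and Tbx3 (0.072). Keratin scaling turned Pgr (0.049), Gata3 (0.56), Tbx3 (0.32), Spdef (0.11) and Cited1 (0.14), and put the members' median at 0.40. It left 1 member (Tbx3) without overlap (9.19% of tested genes). Library quality weights turned Foxa1 (-0.28) and Tbx3 (0.022) and called 2 genes, Nmi (limma adjusted p = 0.000671) and Cdk5rap1 (0.0415). Leaving out each replicate in turn gave -0.042 to 0.43 for Esr1, -0.079 to 0.041 for Pgr, -0.17 to 0.14 for Foxa1, -0.25 to 0.0026 for Gata3, -0.19 to 0.12 for Tbx3, -0.59 to 0.060 for Cited1, -0.076 to 0.11 for Prom1, -0.43 to -0.013 for Spdef, -0.83 to -0.19 for Areg, -1.02 to -0.26 for Ly6a, and -0.17 to 0.069 for the members' median. An unadjusted limma p under 0.05 was reached by Ly6a without KO replicate 1 (limma adjusted p = 0.845), where 1.84% of tested genes reached it, and by Ly6a and Cited1 without WT replicate 3 (limma adjusted p = 0.508 for both), where 6.47% did. From 0 to 2 members were then without overlap: Spdef and Ly6a without KO replicate 1 (11.8% of tested genes), and Areg without KO replicate 2 (32.2%) or WT replicate 3 (28.3%). Without both WT replicate 1 and KO replicate 3, chosen after seeing the data, Esr1 (-0.12), Pgr (0.013), Tbx3 (0.26), Cited1 (0.056) and Ly6a (0.028) changed sign, 1 member (Prom1) was without overlap (15.2% of tested genes), and 1 gene was called, Gm7367 (limma adjusted p = 0.0317). The cause of these changes was not tested. No paired analysis was possible because the mouse numbers are not shared between the genotypes. Depth limits Pgr, Areg and Prom1 most, since few fragments lay behind them, and 3 mice per genotype limit all members.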
